A study of Mus musculus with 6 samples.

Results

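The 8 G protein-coupled receptors followed here sense metabolites or local mediators, and their mRNA was measured in mouse gonadal fat (gWAT, gonadal white adipose tissue) on normal chow (NCD) and on a high-fat diet (HFD). They are *Ffar2*, *Ffar4*, *Hcar1*, *Hcar2*, *Gpr84*, *Adora1*, *Sucnr1* and *Ptger3*, which were found by NCBI gene identifier as 8 of the 19790 genes of the deposited count table. RNA was sequenced from wild-type C57BL/6 mice after 8 weeks of feeding, 3 on NCD and 3 on HFD, and the replicates are separate mice. The methods describe them as male, and the labels give an age of 6 weeks and the methods one of 8 weeks at the start of the HFD. The tissue was taken whole, so every value below is a sum over adipocytes, macrophages and all other cells of the pad.

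These receptors let fat tissue read its own metabolism. Several of them couple to inhibitory G proteins, which hold down adenylyl cyclase, cAMP and protein kinase A, and so restrain lipolysis in adipocytes. The lactate receptor *Hcar1*, the ketone body and niacin receptor *Hcar2*, the adenosine receptor *Adora1*, the prostaglandin E2 receptor *Ptger3* (EP3) and the succinate receptor *Sucnr1* belong to that group. *Ffar2* responds to short-chain fatty acids such as acetate, *Ffar4* (also called GPR120) to long-chain fatty acids, and *Gpr84* to medium-chain fatty acids. Macrophages, neutrophils and other immune cells also use *Hcar2*, *Gpr84*, *Ffar2* and *Sucnr1*, so a bulk level cannot be assigned to one cell type.

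The libraries held between 49575113 and 66360046 counts. NCD replicate 1 stood apart from the others, with 58.6% of its counts on 11 secretory genes of the seminal vesicle. The share was 11.2% for NCD replicate 2 and 2.30% for NCD replicate 3. No HFD library exceeded 1.21e-05%. Seminal vesicle counts thus went with diet, present on NCD and almost absent on HFD. Leaving out NCD replicate 1 still keeps the 11.2% of NCD replicate 2 in the comparison. The part of this tissue in the diet differences was not tested. Levels are given as CPM, counts relative to the library total, scaled by edgeR's TMM method, and the diets were compared with edgeR's quasi-likelihood test at a Benjamini-Hochberg adjusted p under 0.05 over the 15241 genes with enough counts. Log2 fold changes are HFD over NCD. Each receptor is also given without NCD replicate 1. With that library kept and any 1 of the other 5 mice left out, between 2 and 7 genes of the whole table passed the threshold.

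Of the 8 receptors, *Ptger3* fell on HFD and no receptor rose past the threshold. Of the 7 receptors with enough counts to be tested, 0 passed as higher and 1 as lower by edgeR, while 5.58% of all tested genes passed as higher and 1.9% as lower. Without NCD replicate 1 all 8 were tested, and 0 passed as higher and 2, *Ptger3* and *Ffar4*, as lower, against 10.7% and 10.1% of all genes. At an unadjusted p under 0.05 edgeR counted 1 receptor as higher, *Hcar2*, and 1 as lower, *Ptger3*, over all 6 mice, where 29.7% of all tested genes lay under that p in either direction. The corresponding receptors without NCD replicate 1 were 2 higher, *Ffar2* and *Gpr84*, and 2 lower, *Ptger3* and *Ffar4*, against 37.6% of all genes. By DESeq2 on all 6 mice, *Hcar2* passed as higher and *Ptger3* as lower, against 12.5% and 10.4% of all genes. *Ffar2* was higher in every HFD-fed mouse than in every NCD-fed mouse and *Ptger3* lower, separations that 20.5% and 18.7% of all tested genes showed in these directions. The median log2 fold change of the 7 tested receptors was 0.13, and that of all tested genes was -0.08.

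**Figure D1:**
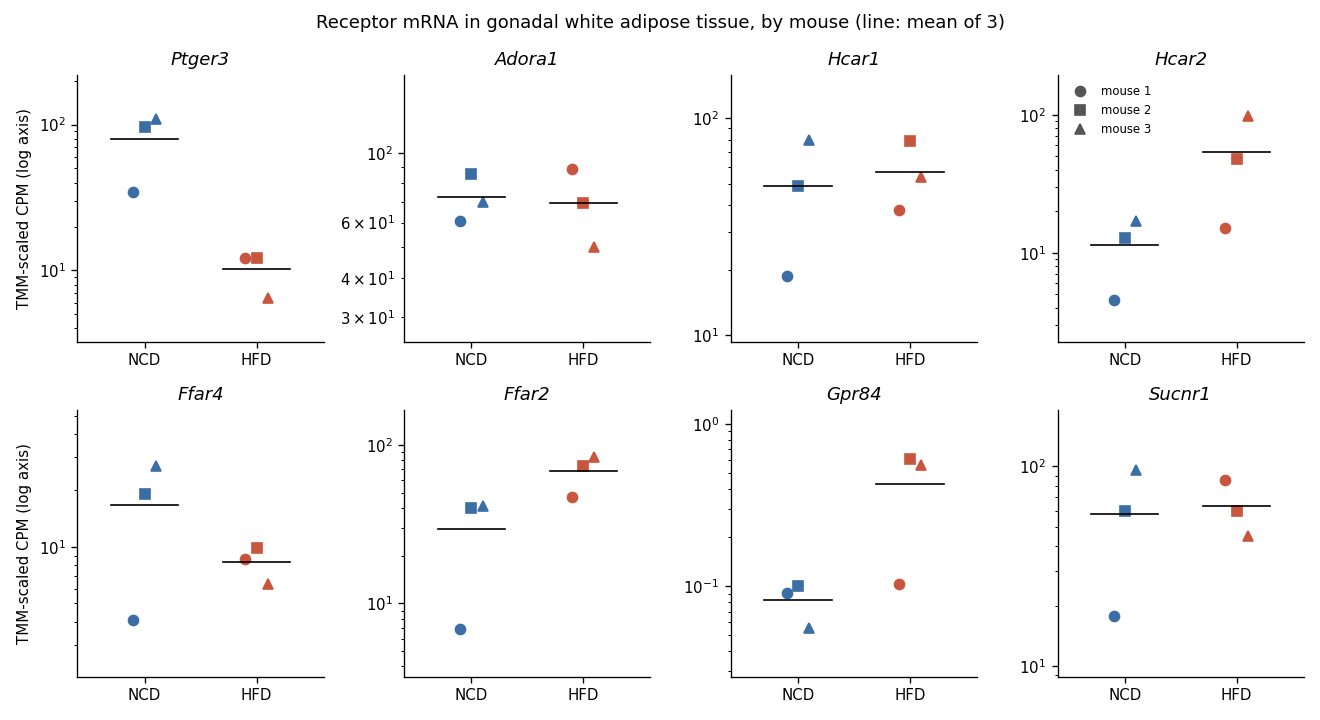
Level of each receptor in TMM-scaled CPM (log axis, a separate range per panel) in 3 NCD-fed and 3 HFD-fed mice, with symbols for the replicate number and a line at the mean. *Ptger3* lay between 34.6 and 110 on NCD and between 6.49 and 12.2 on HFD, and NCD replicate 1 was the lowest NCD mouse for every receptor except *Gpr84*.

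Sequence upstream of the receptor genes is shown for *Ptger3* and *Ffar4*, which passed as lower in at least 1 of the fits above, and for *Adora1*, the tested receptor whose level varied least between mice. The sequences are from RefSeq (GRCm38.p6), 5′ to 3′ on the strand of the gene, and end at the last base before the gene. Of the 8 receptors, 7 had an entry, *Hcar2* had none, and the window of *Gpr84* lay almost wholly inside the gene, which left 6. Capitals mark matches on either strand to 6 short motifs: the GC box GGGCGG, the PU.1 core GAGGAA, the nuclear receptor element AGGTCA, the C/EBP motif TTGCNNAA, the E-box CACGTG and the TATA box TATAAA. No pair of these motifs overlapped in the sequences below, except that the copies of the GC box in *Adora1* abut.
Ptger3 (chr3:157566626-157566820, plus strand): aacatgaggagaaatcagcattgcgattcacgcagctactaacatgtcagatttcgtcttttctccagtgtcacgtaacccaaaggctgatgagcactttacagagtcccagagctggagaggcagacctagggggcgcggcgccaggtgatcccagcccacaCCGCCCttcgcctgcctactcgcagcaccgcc
Ffar4 (chr19:38096829-38097078, plus strand): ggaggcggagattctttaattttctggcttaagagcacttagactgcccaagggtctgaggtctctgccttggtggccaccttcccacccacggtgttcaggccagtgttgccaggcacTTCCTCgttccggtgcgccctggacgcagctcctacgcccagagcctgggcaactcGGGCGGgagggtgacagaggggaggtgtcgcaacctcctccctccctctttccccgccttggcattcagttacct
Adora1 (chr1:134235458-134235707, minus strand): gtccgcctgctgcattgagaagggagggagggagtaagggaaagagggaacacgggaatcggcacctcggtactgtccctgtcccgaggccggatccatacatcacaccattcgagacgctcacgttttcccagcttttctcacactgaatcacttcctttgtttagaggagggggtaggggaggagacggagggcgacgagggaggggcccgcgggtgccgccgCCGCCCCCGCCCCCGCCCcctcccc
The 195 bases before *Ptger3* held 1 GC box, 32 to 27 bases before the gene, and were 56.9% G or C. A GC box stood in 30.8% of 32851 mouse promoter windows of that length. The 250 bases before *Ffar4* held a GC box and a PU.1 core, which stood in 32.7% and 23.3% of windows of 250 bases. *Adora1* had 3 GC boxes within its last 25 bases. A GC box was thus found before receptors that passed the test and before 1 that did not. No TATA box was found in any of the 6 sequences, and 12.4% of windows of 250 bases held one. *Ffar2* was the only one of the 6 with a nuclear receptor element, a C/EBP motif and an E-box, which stood in 14.0%, 9.56% and 6.02% of windows. *Hcar1* and *Sucnr1* each held a PU.1 core and none of the other motifs.

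*Ptger3* (NCBI gene 19218, chr3:157566821-157644758 of GRCm38.p6) encodes EP3, the prostaglandin E2 receptor through which this lipid restrains lipolysis in fat cells. It measured 34.6, 96.0 and 110 TMM-scaled CPM in the NCD-fed mice (replicates 1, 2 and 3, an order kept below) and 12.1, 12.2 and 6.49 in the HFD-fed mice. All 3 HFD-fed mice lay below all 3 NCD-fed mice, and NCD replicate 1 had the lowest NCD value. Mean levels were 80.1 ± 40.0 and 10.3 ± 3.26 (SD, n = 3 mice per diet), 7.81-fold lower on HFD. By edgeR the log2 fold change was -2.97 with a standard error of 0.506 and an adjusted p of 0.0289. Without NCD replicate 1 it was -3.31 (standard error 0.291, adjusted p = 0.00556 by edgeR), and the mean of NCD replicates 2 and 3 was 103. *Ptger3* kept its direction but not the threshold on leaving out any 1 of the remaining 5 mice, with adjusted p from 0.0725 to 0.123 by edgeR and log2 fold changes from -3.10 to -2.66.

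*Adora1* (NCBI gene 11539, chr1:134199215-134235457) encodes the A1 adenosine receptor, an inhibitory receptor of fat cells. It measured 60.8, 85.7 and 69.9 TMM-scaled CPM in the NCD-fed mice and 88.5, 69.1 and 50.2 in the HFD-fed mice. The diets overlapped, with means of 72.1 ± 12.6 (SD, n = 3 mice) and 69.3 ± 19.2 (SD, n = 3 mice). The difference by edgeR was -0.06 on the log2 scale with a standard error of 0.251 (adjusted p = 0.894), and it was -0.15 without NCD replicate 1. *Adora1* also differed least between NCD replicate 1 and its diet mates, at 0.781 of the mean of NCD replicates 2 and 3, while the other 6 tested receptors were at 0.170 to 0.337 of that mean.

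*Hcar1* (NCBI gene 243270, chr5:123876739-123880003), the lactate receptor of adipocytes, was at 18.7, 48.9 and 79.5 TMM-scaled CPM on NCD and at 37.8, 78.5 and 53.5 on HFD. Values of the diets overlapped. A log2 fold change of 0.21 by edgeR, with a standard error of 0.538 and an adjusted p of 0.821, turned to -0.17 without NCD replicate 1. *Sucnr1* (NCBI gene 84112, chr3:60081869-60087566), the succinate receptor, was at 17.8, 59.6 and 96.1 on NCD and at 85.4, 59.6 and 44.9 on HFD. It overlapped as well, and its 0.13 by edgeR, with a standard error of 0.589 and an adjusted p of 0.900, turned to -0.29 without NCD replicate 1.

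*Hcar2* (NCBI gene 80885, chr5:123863570-123865516), the receptor for 3-hydroxybutyrate and niacin, is used by adipocytes and by macrophages and neutrophils. It measured 4.54, 12.9 and 17.0 TMM-scaled CPM in the NCD-fed mice and 15.1, 47.8 and 97.6 in the HFD-fed mice. HFD replicate 1 lay inside the NCD range, and the other HFD-fed mice lay above it. The means were 11.5 ± 6.35 (SD, n = 3 mice) and 53.5 ± 41.5 (SD, n = 3 mice), and edgeR gave a log2 fold change of 2.22 with a standard error of 0.774 and an adjusted p of 0.124. DESeq2 gave 2.23 with an adjusted p of 0.0155. Without NCD replicate 1 edgeR gave 1.86 (adjusted p = 0.136), without HFD replicate 3 it gave 1.46 (adjusted p = 0.340) and without HFD replicate 1 it gave 2.67 (adjusted p = 0.105). *Hcar1* and *Hcar2* are related genes that lie close together on chromosome 5, and the counting of reads that match both is not described in the methods or labels.

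*Ffar4* (NCBI gene 107221, chr19:38097079-38114263), the long-chain fatty acid receptor, measured 4.08, 19.3 and 26.9 TMM-scaled CPM in the NCD-fed mice and 8.65, 9.85 and 6.38 in the HFD-fed mice. NCD replicate 1 was the lowest of the 6 mice, and NCD replicates 2 and 3 were the highest. Over all mice edgeR gave a log2 fold change of -1.02 with a standard error of 0.639 and an adjusted p of 0.329. Without NCD replicate 1 the diets no longer overlapped, and edgeR gave -1.46 with a standard error of 0.244 and an adjusted p of 0.0152. Whether *Ffar4* passed thus rested on that library.

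*Ffar2* (NCBI gene 233079, chr7:30818031-30823775), the receptor for acetate and other short-chain fatty acids, measured 6.91, 40.1 and 40.9 TMM-scaled CPM in the NCD-fed mice and 46.7, 73.7 and 83.3 in the HFD-fed mice. Every HFD-fed mouse was above every NCD-fed mouse, although HFD replicate 1 exceeded NCD replicates 2 and 3 only narrowly. The means were 29.3 ± 19.4 (SD, n = 3 mice) and 67.9 ± 19.0 (SD, n = 3 mice), a ratio of 2.32, which was 1.68 over the mean of NCD replicates 2 and 3. The log2 fold change did not pass, at 1.21 (standard error 0.647, adjusted p = 0.262 by edgeR) over all mice and at 0.76 (standard error 0.261, adjusted p = 0.0917 by edgeR) without NCD replicate 1.

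*Gpr84* (NCBI gene 80910, chr15:103308233-103310670), a receptor for medium-chain fatty acids on myeloid cells, was the rarest of the 8. It had 3, 6 and 3 counts in NCD replicates 1, 2 and 3 and 6, 51 and 35 counts in HFD replicates 1, 2 and 3. The exact 95% Poisson intervals, which cover counting error only, were 2.2 to 13.1 for the 6 counts of HFD replicate 1, and 38.0 to 67.1 and 24.4 to 48.7 for the other HFD-fed mice. HFD replicate 1 could therefore not be told from the NCD libraries at this depth, while HFD replicates 2 and 3 lay above them. *Gpr84* did not pass the filter on low counts over all 6 mice. With no such filter edgeR gave it a log2 fold change of 2.36 with a standard error of 0.868 and an adjusted p of 0.161, and without NCD replicate 1 it was 2.43 (adjusted p = 0.130 by edgeR).

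**Figure D2:**
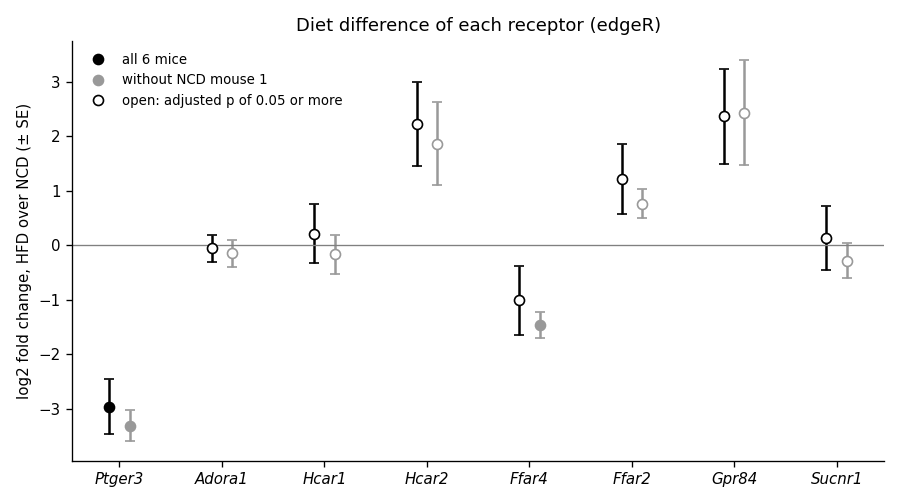
Log2 fold change of each receptor, HFD over NCD, with its standard error from edgeR, for all 6 mice (black) and without NCD replicate 1 (grey). Filled points passed an adjusted p of 0.05: *Ptger3* at -2.97 and -3.31, and *Ffar4* at -1.46 without NCD replicate 1. *Gpr84* over all mice is from the fit with no filter on low counts.

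Dividing counts by exon length and library total (FPKM, from GENCODE vM21 exon lengths) lets the receptors be ordered within a diet. These totals include the seminal vesicle counts, which lowers the FPKM of NCD replicate 1 most and that of the other NCD-fed mice less. By mean FPKM, *Sucnr1* was highest on NCD at 36.7 ± 30.0 (SD, n = 3 mice) and also on HFD at 48.9 ± 13.4 (SD, n = 3 mice). On NCD it was followed by *Ptger3*, *Hcar1*, *Ffar4*, *Ffar2*, *Adora1*, *Hcar2* and *Gpr84*. Each step of that order held in all 3 mice except *Ffar4* over *Ffar2* and *Ffar2* over *Adora1*, which held in 2, so *Ffar4*, *Ffar2* and *Adora1* could not be ordered. On HFD *Sucnr1* was followed by *Hcar2*, *Ffar2*, *Hcar1*, *Adora1*, *Ffar4*, *Ptger3* and *Gpr84*. There *Sucnr1* over *Hcar2* and *Hcar1* over *Adora1* held in 2 mice and *Hcar2* over *Ffar2* in 1, so those neighbours were within their spread. *Ptger3* moved from rank 2 at 24.0 ± 16.4 FPKM (SD, n = 3 mice) to rank 7 at 3.86 ± 1.17 (SD, n = 3 mice). *Hcar2* moved from rank 7 at 5.81 ± 4.23 FPKM (SD, n = 3 mice) to rank 2 at 34.7 ± 27.6 (SD, n = 3 mice). That rank rested on HFD replicate 3: *Hcar2* was at 9.05, 31.1 and 64.0 FPKM in the HFD-fed mice, at ranks 5, 3 and 1, and without HFD replicate 3 its mean of 20.1 gave rank 4. *Gpr84* was last on both diets, at 0.0401 ± 0.0173 and 0.308 ± 0.207 FPKM (SD, n = 3 mice each).

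Markers of several cell types differed between the diets and between mice. Summed over 12 macrophage markers, the libraries had 585 to 1311 TMM-scaled CPM on NCD and 3198 to 4435 on HFD. Of the 12 genes 6 rose past the threshold and none fell (median log2 fold change 1.95), against 5.58% and 1.9% of all tested genes. Of 6 markers of lipid-associated macrophages, 3 rose, against 5.58% of all tested genes. The sum of the 6 was 71.9 to 403 on NCD and 490 to 2876 on HFD, highest in HFD replicate 1. The value of 403 was that of NCD replicate 1, where *Cd9* alone was at 359, against 59.6 and 31.2 in NCD replicates 2 and 3. The 10 adipocyte markers summed to 4435 in NCD replicate 1, to 17684 and 23853 in the other NCD-fed mice, and to 13272 to 17481 on HFD. None of the 10 passed in either direction by edgeR, at a median log2 fold change of -0.30. At an unadjusted p under 0.05, 1 was lower, where 29.7% of all genes lay in either direction. Leaving out NCD replicate 1, 3 of the 10 passed as lower, against 10.1% of all genes in that fit, and the median was -0.73. The 6 neutrophil markers summed to 0.183 to 1.81 on NCD and to 4.40, 86.3 and 268 in HFD replicates 1, 2 and 3. Of these markers 3 had enough counts to test, and none passed by edgeR. All 3 were higher at an unadjusted p under 0.05, where 29.7% of all genes lay in either direction. *Ly6g*, a defining neutrophil marker, had 0 counts in all NCD libraries and HFD replicate 1, and 7 and 11 counts in HFD replicates 2 and 3. On HFD *Hcar2* had the same order of mice as the neutrophil sum, and *Gpr84* was likewise lowest in HFD replicate 1. The order of *Hcar2* was also that of *Fcgr1*, *Mrc1*, *Itgam* and *Cd14* of the macrophage list, but not of its other genes. The part of any of these cell types in the receptor levels was not tested.

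Epithelial and smooth muscle markers summed to 1078 and 5778 TMM-scaled CPM in NCD replicate 1 and to 15.7 to 108 and 215 to 697 in the other mice. Endothelial markers summed to 214 in NCD replicate 1 and to 638 to 850 elsewhere, stromal progenitor markers to 873 to 1290 on NCD and 1040 to 1495 on HFD, and lymphocyte markers to 12.7 to 17.8 and 7.35 to 20.6. Mesothelial markers summed to 77.1 to 109 on NCD and 136 to 426 on HFD, and 1 of the 4 passed as higher (5.58% of all tested genes). Every marker on these lists was detected in at least 1 library.

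The receptors were next set against the adipocyte and macrophage lists within each library, a ratio free of any scaling between libraries. In bulk tissue fewer cells of a type and less RNA per cell cannot be told apart. On the log2 scale, *Ptger3* relative to the adipocyte list measured -7.00, -7.53 and -7.76 in the NCD-fed mice and -10.4, -10.5 and -11.0 in the HFD-fed mice. The difference was -3.20 (two-sided exact permutation test, p = 0.1), the smallest p that 3 mice against 3 allow, and the diets did not overlap. *Ffar4* relative to the adipocyte list was at -10.1, -9.84 and -9.79 on NCD and at -10.9, -10.8 and -11.0 on HFD, a difference of -0.99 (exact permutation p = 0.1). Here NCD replicate 1 lay with its diet mates, and the diets of *Ffar4* did not overlap with all 6 mice in. The list is a sum in which *Fabp4* (log2 fold change 0.40) is the most abundant gene. Its markers moved apart, from -2.32 for *Retn* to 1.25 for *Lep*, so such a difference depends on which markers carry the sum. With *Adipoq* alone in place of the list the *Ffar4* difference was -0.77. *Ffar2* was 1.21 higher on HFD relative to the same list, again without overlap (exact permutation p = 0.1). For *Hcar2* and *Gpr84* the differences were 1.71 and 1.70 with overlap (exact permutation p = 0.2 each). They ranged from 0.97 without HFD replicate 3 to 2.47 without HFD replicate 1 for *Hcar2*, and from 0.96 without NCD replicate 3 to 2.56 without HFD replicate 1 for *Gpr84*. For *Sucnr1* and *Hcar1* the differences were 0.05 and 0.03 (p = 0.8 and p = 0.9 by the same exact test), and for *Adora1* -0.42 (exact permutation p = 0.8). *Adora1* stood out in NCD replicate 1, at -6.19 relative to the adipocyte list against -7.69 and -8.41 in NCD replicates 2 and 3. The differences without that library were -2.98 for *Ptger3*, -1.08 for *Ffar4*, 1.10 for *Ffar2* and 0.20 for *Adora1*. The share of all genes whose ratio to the adipocyte list did not overlap between the diets was not computed. By TMM-scaled CPM, 20.5% of all tested genes were higher and 18.7% lower on HFD without overlap.

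Relative to the macrophage list, which was itself higher on HFD, *Hcar2* and *Gpr84* were at differences of 0.08 and 0.07 (exact permutation p = 0.9 and p = 1) and *Ffar2* at -0.41 (exact permutation p = 0.5). *Ptger3*, *Ffar4*, *Adora1*, *Hcar1* and *Sucnr1* were lower, with differences of -4.82, -2.62, -2.05, -1.59 and -1.58, each without overlap between the diets (exact permutation p = 0.1 each). How many of all genes would be without overlap on this ratio was not computed. The list sums did not overlap either, at 585 to 1311 TMM-scaled CPM on NCD and 3198 to 4435 on HFD. By TMM-scaled CPM, *Adora1*, *Hcar1* and *Sucnr1* overlapped between the diets. The p-values of these 16 ratios are not adjusted, and none could have passed 0.05. Set against a single marker in place of the list, *Hcar2* and *Gpr84* were -0.82 and -0.83 relative to *Adgre1*, the gene of the macrophage antigen F4/80.

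**Figure D3:**
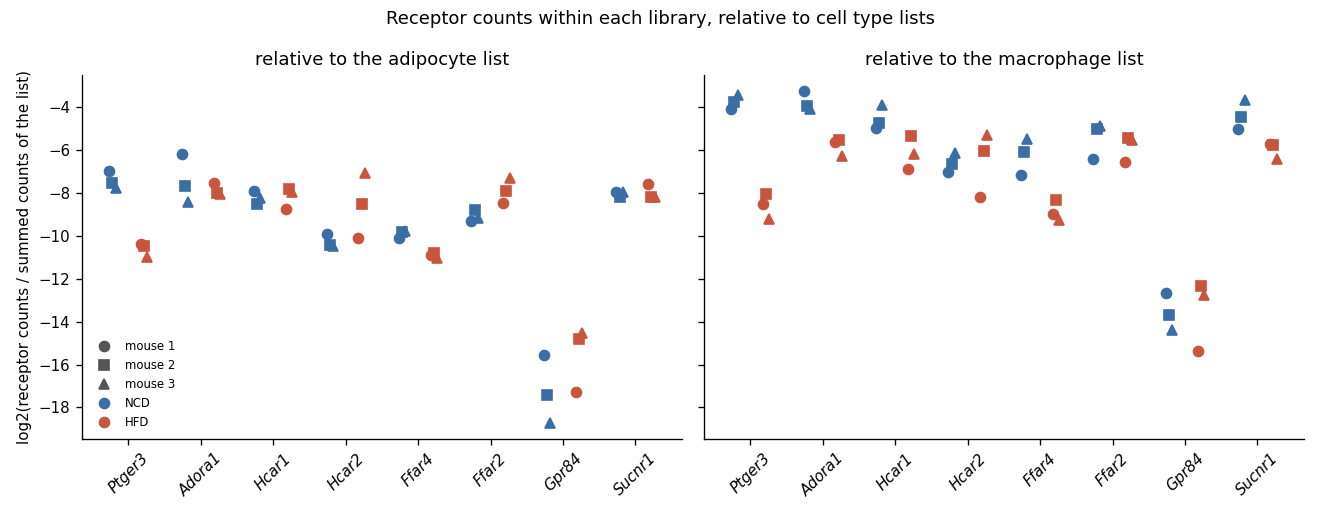
Log2 ratio of the counts of each receptor to the summed counts of 10 adipocyte markers (left) or 12 macrophage markers (right) in each library, NCD in blue and HFD in red. Relative to the adipocyte list *Ptger3* and *Ffar4* were lower and *Ffar2* higher on HFD without overlap, and relative to the macrophage list *Ptger3*, *Adora1*, *Hcar1*, *Ffar4* and *Sucnr1* were lower. The share of all genes that did so was not computed, and the macrophage list was itself higher on HFD.

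Prostaglandin E2 also acts through EP1, EP2 and EP4, encoded by *Ptger1*, *Ptger2* and *Ptger4*, of which EP2 and EP4 raise cAMP. *Ptger2* was at 0.792, 1.96 and 2.46 TMM-scaled CPM on NCD and at 10.9, 7.80 and 9.95 on HFD and rose (log2 fold change 2.45, standard error 0.453, adjusted p = 0.0348 by edgeR). *Ptger4* was at 5.94, 9.03 and 9.16 on NCD and at 23.2, 30.4 and 34.4 on HFD and rose too (log2 fold change 1.87, standard error 0.254, adjusted p = 0.0220 by edgeR). It was named after its values were seen. Per length, *Ptger3* exceeded *Ptger4* by 5.99, 10.9 and 12.3 times in NCD replicates 1, 2 and 3 and was at 0.535, 0.413 and 0.194 of *Ptger4* in HFD replicates 1, 2 and 3. The ratio of *Ptger3* to *Ptger2* went from 49.8, 55.8 and 50.8 on NCD to 1.26, 1.78 and 0.742 on HFD. The order of EP3 and EP4 mRNA was thus opposite in the diets in all 6 mice. These pairs, and those below, were chosen after their values were seen and carry no test. The median log2 fold change of 7 genes of prostaglandin E2 synthesis, breakdown and uptake was -0.56. Against 5.58% of all tested genes that rose and 1.9% that fell, none of the 7 rose and 1 fell. It was *Ptges*, the inducible prostaglandin E synthase, at 78.3, 192 and 178 TMM-scaled CPM on NCD and 43.5, 44.3 and 48.7 on HFD (log2 fold change -1.72, standard error 0.350, adjusted p = 0.0428 by edgeR).

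Adenosine is read by *Adora1* and by *Adora2a* and *Adora2b*, which raise cAMP, and *Adora3*. *Adora2b* was at 1.19, 2.01 and 1.19 TMM-scaled CPM on NCD and at 3.81, 8.42 and 9.55 on HFD and rose (log2 fold change 2.31, standard error 0.452, adjusted p = 0.0394 by edgeR). *Adora1* exceeded *Adora2b* in FPKM by 16.3, 13.6 and 18.7 times in NCD replicates 1, 2 and 3 and by 7.40, 2.62 and 1.68 times in HFD replicates 1, 2 and 3. *Adora1* also remained above *Adora2a* in every mouse, by 2.05 to 5.56 times on NCD and by 1.3 to 1.72 times on HFD. Of 6 genes that make, clear or carry adenosine, *Entpd1* (CD39, which degrades extracellular ATP) and *Ada* (adenosine deaminase) rose with log2 fold changes of 1.39 and 1.59 (adjusted p = 0.0233 and 0.0417 by edgeR). *Adk*, the adenosine kinase, fell (log2 fold change -1.3, adjusted p = 0.0445 by edgeR), and the other 3 genes did not pass (median of the 6 genes 0.13). Over all tested genes 5.58% rose and 1.9% fell.

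**Figure D4:**
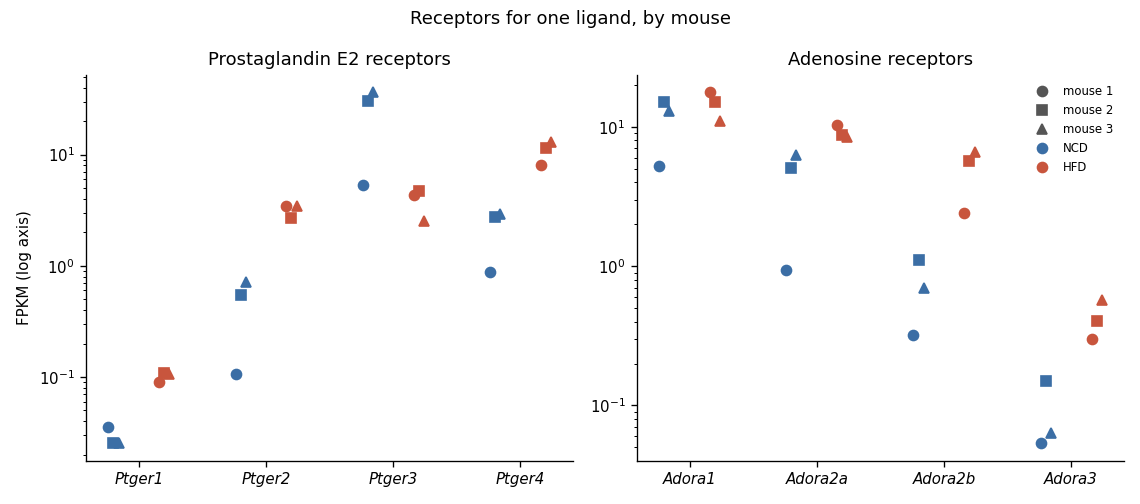
FPKM (log axis) of the 4 prostaglandin E2 receptor genes and the 4 adenosine receptor genes in each mouse, NCD in blue and HFD in red. *Ptger3* was above *Ptger4* in the 3 NCD-fed mice and below it in the 3 HFD-fed mice, whereas *Adora1* was the highest adenosine receptor gene in all 6.

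*Hcar2* relative to its neighbour *Hcar1* went from 0.413, 0.448 and 0.364 in FPKM in NCD replicates 1, 2 and 3 to 0.680, 1.04 and 3.11 in HFD replicates 1, 2 and 3. All 3 HFD ratios were above the NCD ratios, including that of HFD replicate 1, whose *Hcar2* level alone lay inside the NCD range. Of 7 genes of lactate and ketone body metabolism and transport none passed by edgeR, and 2 were higher and 3 lower at an unadjusted p under 0.05 (29.7% of all genes), around a median log2 fold change of -0.55. The 2 most abundant were *Ldha*, a lactate dehydrogenase subunit, with a log2 fold change of -0.55 (adjusted p = 0.472 by edgeR), and *Oxct1*, which starts ketone body use, with -0.67 (adjusted p = 0.140 by edgeR).

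Of 7 genes of acetate use and long-chain fatty acid release 1 fell and none rose, at a median log2 fold change of -0.66. The shares of all tested genes were 1.9% and 5.58%. *Acss2*, which converts acetate, a ligand of *Ffar2*, into acetyl-CoA, was at 160, 596 and 620 TMM-scaled CPM on NCD and at 31.9, 35.6 and 21.6 on HFD (log2 fold change -3.95, standard error 0.588, adjusted p = 0.0238 by edgeR). None of 8 genes of succinate metabolism passed by edgeR over all mice, and 1 was higher and 3 were lower at an unadjusted p under 0.05 (29.7% of all genes), around a median log2 fold change of -0.55. The most abundant were at log2 fold changes of -0.95 for *Sdha* and -0.56 for *Sdhd*, subunits of succinate dehydrogenase (adjusted p = 0.118 and 0.243 by edgeR). Of the 8, 5 passed as lower without NCD replicate 1, against 10.1% of all genes in that fit.

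A list of 22 related receptors covered fatty acids, bile acids, prostanoids, adenosine, cannabinoids, protons, catecholamines, neuropeptide Y and other ligands. Of these receptors 19 were found and 16 had enough counts to test. Of the 16, 7 rose and none fell, with a median log2 fold change of 1.34, against 5.58% of all tested genes that rose. The rises were *Gpr35* (log2 fold change 3.16, adjusted p = 0.0300 by edgeR), *Ptger2*, *Adora2b*, *Cnr2* (2.30, adjusted p = 0.0235 by edgeR), *Ptger4*, *Gpr65* and *Gpr132*. *Cnr2*, the cannabinoid receptor of immune cells, *Gpr65*, a proton sensor, *Gpr132* and *Gpr35* are known from leukocytes. The macrophage sums above were also higher on HFD, and highest in HFD replicate 1. In that mouse *Gpr35*, *Gpr65*, *Gpr132*, *Adora2b* and *Ptger4* were lowest of their diet, and *Cnr2* and *Ptger2* were highest. Of the macrophage markers, *Adgre1*, *Cd68*, *Csf1r*, *Mertk*, *Lyz2* and *C1qb* were highest there and *Fcgr1*, *Mrc1*, *Itgam*, *C1qa* and *Cd14* lowest. The part of macrophages in the receptor rises was not tested. *Ffar1*, the other long-chain fatty acid receptor, had 0, 3 and 0 counts on NCD and 0, 5 and 7 on HFD. Of 26 genes for G proteins, arrestins, receptor kinases and RGS proteins, through which such receptors signal and are turned off, 3 rose and none fell. They were *Rgs1* (log2 fold change 4.02, adjusted p = 0.0223 by edgeR), *Rgs10* (1.67, adjusted p = 0.0289 by edgeR) and *Gna15* (1.20, adjusted p = 0.0429 by edgeR), and the median of the list was 0.06. Over all tested genes 5.58% rose and 1.9% fell. Without NCD replicate 1, 7 rose and 2 fell in this list, against 10.7% and 10.1% of all genes in that fit.

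Genes with the profile most like that of each receptor were taken as those with the smallest root mean square (RMS) difference of centred log2(TMM-scaled CPM + 0.5) over the 6 mice, among 13594 genes (13595 for *Gpr84*). Since all profiles share the same libraries, the cell mix and NCD replicate 1 enter each likeness. For *Ptger3* they were *Slc2a13* (RMS difference 0.121), *Adcy10* (0.194) and *Gsta3* (0.206), where *Ptger3* itself varied by an RMS of 1.52. *Slc2a13*, an inositol transporter, was at 9.71, 28.2 and 37.3 TMM-scaled CPM on NCD and at 3.22, 4.11 and 1.80 on HFD. *Adcy10* encodes the soluble adenylyl cyclase and was at 0.243, 0.348 and 0.128 on HFD, below the 0.5 added before the log. For *Ffar4* they included *Hoxc8* (0.0608) and *Adig* (0.138), where *Ffar4* varied by 0.874. *Hoxc8*, a homeobox gene, was the closest match found for any receptor, at 31.9, 143 and 200 TMM-scaled CPM on NCD and 65.8, 71.2 and 44.0 on HFD. *Adig* encodes adipogenin of fat cells.

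The profiles nearest to *Hcar2* were those of *Wfdc17* (RMS difference 0.166), *Ms4a4a* (0.206) and *Mirt2* (0.221), where *Hcar2* varied by 1.37. *Ms4a4a*, a membrane protein gene of macrophages, was at 3.26, 9.20 and 8.37 TMM-scaled CPM on NCD and 10.8, 33.9 and 76.0 on HFD, with HFD replicate 1 lowest of its diet as for *Hcar2*. For *Ffar2* they were *Il4i1* (0.133), *Mmp27* (0.178) and *Fam83a* (0.206), where *Ffar2* varied by 1.15. *Il4i1* encodes a secreted amino acid oxidase of immune cells. *Hcar1* was nearest to the glutamate transporter gene *Slc1a3* (0.134), *Gata6* (0.169) and *Hoxa3* (0.175), and *Sucnr1* to *Tspan12* (0.113), *Trp53inp2* (0.124) and *Acp5* (0.132). Genes near *Adora1* included *Slc44a1* (0.0965) and *Map2k6* (0.112), where *Adora1* itself varied by only 0.278. For *Gpr84*, whose low level is flattened by the 0.5 added before the log, they were *Pml* (0.0834), *Sntb2* (0.104) and *Serpina3g* (0.110).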

How the data were processed

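RNA was extracted with TRIzol and libraries were made with the TruSeq mRNA kit (its stranded version per the labels) and run on an Illumina NovaSeq. The submitters' processing notes name bcl2fastq 2.20.0, Trimmomatic, HISAT2 2.1.0, StringTie 1.3.4d, DESeq2 and the build mm10 (GRCm38), and the counting of reads that match several genes is not described. The authors deposited whole-number read counts per NCBI gene, not normalized, in 1 column per mouse (0 columns were left unused). Of the 19790 identifiers, 19742 were matched to symbols, and coordinates are those of GRCm38.p6.

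The main test was edgeR's quasi-likelihood test (glmQLFit, glmQLFTest; edgeR 4.0.16 in R 4.3.3) after TMM scaling, on the 15241 genes that passed filterByExpr (at least 10 counts, total 15), and p-values were adjusted over these genes by Benjamini and Hochberg. The common biological coefficient of variation was 0.424. DESeq2 1.42.0, other scalings, no filter, a replicate block and each mouse left out were alternatives. The edgeR and DESeq2 steps were tested on simulated data. FPKM used GENCODE vM21 exon lengths, found for 17793 genes. Figures were drawn with matplotlib 3.10.9.

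The receptors and gene lists were chosen with earlier results of these data known. Besides the receptors, the text names the 4 largest changes of each list that passed, or the 2 most abundant genes where none did, and the 3 genes most like each receptor, of which some are not reported here. Every pair of replicates differed by more than sampling noise, and intervals cover counting error only.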

Additional observations from a re-analysis of the deposited data

How the results depend on the processing

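Over 233 alternative values of the receptor results, 192 kept their direction and side of the threshold or moved by less than the replicate spread. *Ptger3* was lower on HFD under all 12 alternatives and lost the threshold with library totals as the only scaling (-2.63, adjusted p = 0.0561 by edgeR), with the replicate number as a replicate block (-2.87, adjusted p = 0.0917 by edgeR) and without any single mouse other than NCD replicate 1. Over the fits that left out a mouse it ranged from -3.31 to -2.66. The number of receptors past the threshold as lower ranged from 0 to 2 over those fits, and was 0 with library totals and 0 with the replicate block. DESeq2 called 1 receptor higher, *Hcar2* (2.23). With a mouse left out, *Hcar2* ranged from 1.46 to 2.67. *Ffar4*, which passed without NCD replicate 1, ranged from -1.46 to -0.49. Nothing in the labels says that the replicate numbers pair mice across the diets, and HFD replicate 3 carries a different number in its count column. Correlations of deviations between libraries of the same replicate number were -0.050, -0.031 and -0.007, which cannot settle whether mice were paired. With the block 5 genes of the whole table were higher and 7 lower. *Ptger3* then had a standard error of 0.584, against 0.506 in the main fit. *Hcar2* was at 2.05 under the block, with a standard error of 0.229 (adjusted p = 0.0675 by edgeR). The reason for calls lost under the block was not tested.

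Over the fits that left out a mouse, the log2 fold change ranged from -0.17 to 0.75 for *Hcar1*, from -0.27 to 0.14 for *Adora1* and from -0.29 to 0.72 for *Sucnr1*. With library totals *Adora1* was at 0.39, where the median over all tested genes was 0.45 in place of -0.08. The difference relative to the adipocyte list ranged over the same omissions from -0.15 to 0.33 for *Hcar1*, from -0.91 to 0.20 for *Adora1* and from -0.16 to 0.15 for *Sucnr1*. Relative to the macrophage list it ranged from -0.52 to 0.92 for *Hcar2* and from -0.50 to 1.02 for *Gpr84*, and with *Adgre1* in place of the list it was -0.82 and -0.83. Without division by length, 4 of the 7 steps of the NCD order and 4 of the 7 of the HFD order held. The cause of these shifts was not tested. *Gpr84*, with 3 to 51 counts a library, is limited by depth.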
